A study of Mus musculus with 18 samples.

Results

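The 10 genes of the insulin-like growth factor (IGF) axis were followed through every library of the series: the ligand genes Igf1 and Igf2, the receptor genes Igf1r and Igf2r, the binding protein genes Igfbp2, Igfbp3, Igfbp4, Igfbp5 and Igfbp6, and the noncoding RNA gene H19, which neighbours Igf2. They are 10 of the 24028 genes in the count table and were taken by gene symbol. The genes were selected on their responses and line differences in these same libraries, so their values are descriptions and carry no test. The cells were C2C12 mouse myoblasts, a cell line that can fuse into muscle fibres, and polyadenylated RNA was sequenced.

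The study compared 3 clonal lines, each carrying 1 doxycycline-inducible transgene and each represented by a single clone. The Dux line (labelled 15B) carried codon-altered mouse Dux, the DUX4 line (labelled 9) carried codon-altered human DUX4, and the Luc line (labelled Luc2A) carried the reporter enzyme luciferase as a control. Both Dux and DUX4 encode transcription factors with a pair of homeodomains that act in the early embryo. Induced cultures were exposed to 2 µg/ml doxycycline during 36 h, and uninduced ones were not. All cultures were kept in 2.6 µg/ml puromycin, which selects for the transgene. Each of the 6 groups had 3 libraries. Nothing in the labels says whether these were grown as independent experiments, so the spread between them may be partly technical. Clone, integration and transgene cannot be told apart in differences between uninduced lines.

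IGF1 and IGF2 are secreted growth factors that signal through the IGF1 receptor to the PI3K, AKT and mTOR kinases, and in muscle this pathway promotes myoblast proliferation, differentiation and fibre growth. The IGF2 receptor, also the mannose 6-phosphate receptor, takes up and degrades IGF2, while the binding proteins hold the ligands outside the cell and are released by proteases. Igf2 and H19 are oppositely imprinted neighbours that share enhancers, with Igf2 read from the paternal and H19 from the maternal chromosome.

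H19 (chr7:142575529-142578143 in GRCm38, minus strand) and Igf2 (chr7:142650766-142666816, minus strand) lie 72.6 kb apart, and each holds a microRNA hairpin. Polyadenylated libraries do not measure mature microRNAs, so the sequences are shown as products that the host transcripts carry and not as measurements. They are mature sequences from RefSeq on GRCm38.p6, written 5′ to 3′, with the seed (bases 2 to 8) in capitals. The first pair comes from H19 and the second from Igf2.
mmu-miR-675-3p (chr7:142577078-142577099, - strand): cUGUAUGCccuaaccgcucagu
mmu-miR-675-5p (chr7:142577112-142577133, - strand): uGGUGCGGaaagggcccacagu
mmu-miR-483-3p (chr7:142654932-142654952, - strand): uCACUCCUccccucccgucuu
mmu-miR-483-5p (chr7:142654968-142654989, - strand): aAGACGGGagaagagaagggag
No 2 of these 4 microRNAs share a seed.

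Promoter windows of 300 bases, from 250 bases before to 50 bases after the transcription start, were found in RefSeq for 9 of the 10 genes, in 13 windows. The 4 shown belong to genes that differed widely between lines or between induced and uninduced cultures. Capitals mark the E-box letters CANNTG, the core that myogenic bHLH factors can bind, and the letters TATAAA or TTTAAA, as in TATA boxes. All motifs were searched on both strands.
Igf1 promoter window (chr10:87860861-87861160, + strand): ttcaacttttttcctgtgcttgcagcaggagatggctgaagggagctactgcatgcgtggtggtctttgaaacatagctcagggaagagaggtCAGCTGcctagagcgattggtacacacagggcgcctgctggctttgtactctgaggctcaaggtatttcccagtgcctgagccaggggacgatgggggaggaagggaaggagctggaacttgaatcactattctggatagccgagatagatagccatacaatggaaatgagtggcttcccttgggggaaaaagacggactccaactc
Igfbp3 promoter window (chr11:7213874-7214173, - strand): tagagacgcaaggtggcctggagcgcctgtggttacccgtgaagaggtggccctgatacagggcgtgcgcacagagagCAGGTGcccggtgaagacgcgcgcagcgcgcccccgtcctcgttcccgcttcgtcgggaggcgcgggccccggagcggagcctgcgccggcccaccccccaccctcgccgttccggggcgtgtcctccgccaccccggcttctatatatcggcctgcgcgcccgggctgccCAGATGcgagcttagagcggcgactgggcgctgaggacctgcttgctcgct
Igfbp4 promoter window (chr11:99040994-99041293, + strand): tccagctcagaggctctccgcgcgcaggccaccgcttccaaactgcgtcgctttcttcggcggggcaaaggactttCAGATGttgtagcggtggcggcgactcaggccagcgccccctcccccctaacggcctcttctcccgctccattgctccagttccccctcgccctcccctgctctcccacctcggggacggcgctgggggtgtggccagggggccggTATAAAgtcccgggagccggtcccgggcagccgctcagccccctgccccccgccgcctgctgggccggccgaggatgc
Igfbp5 promoter window (chr1:72874816-72875115, - strand): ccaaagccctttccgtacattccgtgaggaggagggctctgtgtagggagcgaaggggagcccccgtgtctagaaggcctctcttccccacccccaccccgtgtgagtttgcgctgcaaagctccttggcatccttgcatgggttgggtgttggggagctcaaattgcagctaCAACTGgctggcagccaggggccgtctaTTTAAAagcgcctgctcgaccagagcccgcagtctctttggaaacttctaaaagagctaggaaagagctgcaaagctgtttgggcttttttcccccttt
The E-box letters were present in 72.3% of 32851 windows of the same length, TATAAA in 13.6% and TTTAAA in 13.2%. The published DUX4 consensus matched none of the 13 windows, against 0.103% of all windows.

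Sequencing depth was 11010586 to 17179642 counts per library. Levels are given as CPM, counts relative to library size scaled by TMM factors, and as CPM per kb of exon where genes are compared with each other. To compare pairs of replicates, those of the 13602 genes tested with low counts in a pair were left out. Over the rest, pairs differed by a chi-square of up to 35.6 per degree of freedom in induced Dux libraries, where replicate 1 stood apart. In the other groups it was 1.25 to 5.10. The highest values there, 5.02 and 5.10, were those of uninduced Dux replicate 1 against replicates 2 and 3, which differed from each other by 1.25. The Dux row of the table, which the codon-altered transgene need not match, held 24, 24 and 23 counts in induced Dux libraries and 0 to 3 counts in each of the others. The myoblast markers Des, Cdh15 and Myod1 were present in all groups, at unequal levels. Des averaged 948 CPM in induced and 718 CPM in uninduced Dux cultures. It averaged 76.3 and 212 CPM in DUX4 cultures and 1004 and 1282 CPM in Luc cultures, in that order. Myod1 averaged 88.1 and 123 CPM, 3.67 and 26.2 CPM, and 150 and 195 CPM likewise. The whole list of 8 summed to 1158 to 1196 CPM in induced DUX4 libraries, with 1 gene at 0 counts. It summed to 1099 to 1150 CPM in uninduced ones. Myf5, another myoblast marker, averaged 0.0438 CPM in induced and 0.258 CPM in uninduced Dux cultures, 8.83 CPM in induced and 6.97 CPM in uninduced DUX4 cultures, and 81.7 CPM in induced and 104.6 CPM in uninduced Luc cultures. Pax7, a marker of muscle stem cells, ran the other way, at 9.30 CPM in induced and 15.1 CPM in uninduced Dux cultures and at most 0.161 CPM on average in the DUX4 and Luc groups. In bulk samples, fewer cells of a type and less RNA per cell cannot be told apart. Markers of other cell types summed to at most 30.9 CPM per library in any list, that maximum being the neural list in uninduced Luc cultures. Single markers moved with the groups. The macrophage marker Cd68 averaged 20.9 CPM in induced and 1.74 CPM in uninduced DUX4 cultures, and the whole list of 4 blood cell markers, 3 of them at 0 counts in both DUX4 groups, summed to 19.4 to 22.6 CPM in induced and 1.69 to 1.80 CPM in uninduced DUX4 libraries. The endothelial marker Cdh5 averaged 23.4 CPM in induced and 25.4 CPM in uninduced Luc cultures and at most 0.145 CPM in the other groups. Their part in the results was not tested.

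**Figure D1:**
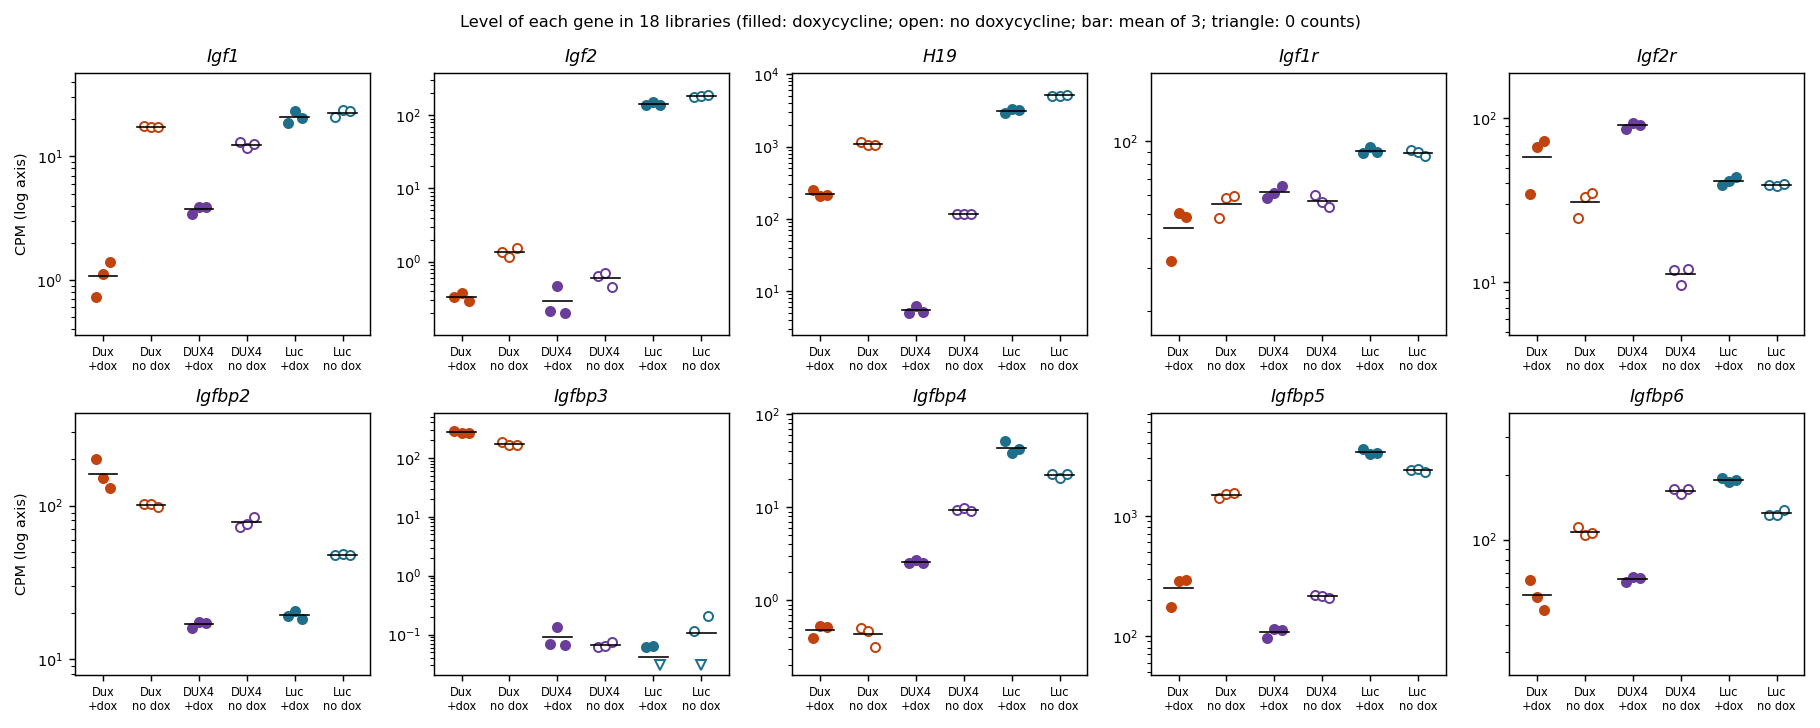
Level of each of the 10 genes in each of the 18 libraries, in CPM on a log axis, with 6 groups along the horizontal axis (filled points, doxycycline; open points, none; black bar, mean of 3; triangles, 0 counts). Igf2 sits above 100 CPM only in the 6 Luc libraries, Igfbp3 above 100 CPM only in the 6 Dux libraries, and Igf1 and H19 are lower with than without doxycycline in the Dux and DUX4 lines.

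Igf1, the ligand that acts through the IGF1 receptor, was lower in induced than in uninduced cultures of both double-homeobox lines. In the Dux line it stood at 0.723, 1.13 and 1.39 CPM in induced cultures, against 17.7, 17.2 and 17.2 CPM in uninduced cultures. In the DUX4 line it stood at 3.41, 3.89 and 3.88 CPM in induced cultures, against 13.0, 11.7 and 12.5 CPM in uninduced cultures. The groups did not overlap in either line. The induced Luc cultures had 18.6, 23.2 and 20.3 CPM and the uninduced ones 20.8, 23.5 and 23.3 CPM, with overlapping values. Expressed as log2 fold changes, the responses were -4.01 (SE 0.155) in the Dux line, -1.73 (SE 0.124) in the DUX4 line and -0.12 (SE 0.0853) in the Luc line. The Dux value corresponds to a 16.1-fold lower level. Ordered by level, the groups ran from the 2 Luc groups, which overlapped, through uninduced Dux, uninduced DUX4 and induced DUX4 to induced Dux cultures, and no other neighbours in that order overlapped. Without doxycycline Igf1 was lower in both lines than in the Luc line, by -0.38 (SE 0.0882) for Dux over Luc and -0.86 (SE 0.0922) for DUX4 over Luc on the log2 scale.

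Igf2, the ligand that differentiating myoblasts make for themselves, separated the lines far more than doxycycline did. It stood at 141, 154 and 140 CPM in induced Luc cultures, against 177, 181 and 188 CPM in uninduced ones. Dux values were 0.329, 0.375 and 0.293 CPM in induced cultures and 1.36, 1.16 and 1.53 CPM in uninduced cultures. In the DUX4 line they were 0.209, 0.462 and 0.201 CPM in induced cultures and 0.626, 0.705 and 0.453 CPM in uninduced cultures. All 6 Luc libraries were above all 12 others. Without doxycycline Igf2 was 135-fold lower in the Dux line and 299-fold lower in the DUX4 line than in the Luc line, with log2 differences of -7.08 (SE 0.0938) and -8.22 (SE 0.105).

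Low counts limit the Igf2 responses outside the Luc line. The 3 libraries of a group held 14 Igf2 counts together in induced and 60 in uninduced Dux cultures, 13 in induced and 27 in uninduced DUX4 cultures, and 6992 in induced and 8773 in uninduced Luc cultures. The log2 response was -1.99 (SE 0.282) in the Dux line, where the groups did not overlap, and -1.02 (SE 0.346) in the DUX4 line, where the highest induced library exceeded the lowest uninduced one. In the Luc line, where counts were ample, it was -0.33 (SE 0.0531), with all induced libraries below all uninduced ones. On the CPM per kb scale, which corrects for transcript length, Igf2 exceeded Igf1 12.2-fold in induced and 14.0-fold in uninduced Luc cultures (SD 0.828 and 0.693, n = 3), and in the 4 other groups the ratio averaged between 0.0834 and 0.576. The overlapping gene Gm49394 and the antisense gene Igf2os cover part of the Igf2 locus, and whether strand was used in counting is not stated by the labels, which leaves reads in the overlap uncertain.

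H19 was among the most abundant transcripts of the Luc line and was lower after doxycycline in each line. The induced Luc libraries had 2911, 3276 and 3199 CPM, against 5008, 5070 and 5159 CPM in the uninduced ones. Induced Dux cultures had 247, 209 and 213 CPM, against 1152, 1061 and 1061 CPM in uninduced ones. In the DUX4 line induced cultures had 5.01, 6.20 and 5.09 CPM, against 117, 116 and 118 CPM in uninduced cultures. The induced and uninduced values did not overlap in any of the 3 lines, and no 2 of the 6 groups overlapped. The log2 responses were -2.29 (SE 0.0668) in the Dux line, -4.43 (SE 0.0886) in the DUX4 line and -0.70 (SE 0.0633) in the Luc line. The Luc line, which has no homeobox transgene, thus also had less H19 with doxycycline, and the responses of the other lines differed from its response by -1.59 (SE 0.0903) for Dux and -3.73 (SE 0.110) for DUX4 on the log2 scale.

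By rank in each library's counts, H19 was the 7th most abundant gene in all 3 uninduced Luc libraries, where it took 0.511% of counts (SD 0.00674). It ranked between 52 and 60 in uninduced Dux libraries, between 1921 and 1985 in uninduced DUX4 libraries, and between 9792 and 10074 in induced DUX4 libraries. In uninduced Dux and DUX4 cultures H19 was present where Igf2 was nearly absent. On the CPM per kb scale the ratio of H19 to Igf2 averaged 1905 (SD 264, n = 3) and 475 (SD 117, n = 3) there, against 64.8 (SD 1.03, n = 3) in uninduced Luc cultures. In induced cultures the ratio averaged 1575 (SD 247) for Dux, 48.7 (SD 15.2) for DUX4 and 50.3 (SD 2.68) for Luc (n = 3 each). Without doxycycline the log2 difference of H19 from the Luc line was -2.22 (SE 0.0659) for Dux and -5.44 (SE 0.0768) for DUX4. The 2 transcripts thus differed between the lines in the same direction but by unequal amounts.

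Markers of muscle differentiation moved with these line differences. All 15 markers on the list, among them the transcription factor gene Myog and genes of the contractile apparatus, were lower in uninduced Dux cultures than in uninduced Luc cultures and lower in uninduced DUX4 cultures than in uninduced Luc cultures (edgeR quasi-likelihood test, adjusted p below the 0.05 threshold), beside 33.1% and 37% of all genes. Their summed level was 170 to 185 CPM per library in uninduced Dux cultures and 54.7 to 58.3 CPM in uninduced DUX4 cultures, against 1543 to 1635 CPM in uninduced Luc cultures. Of that sum, Myod1, also a myoblast marker, averaged 123 CPM, 26.2 CPM and 195 CPM in these 3 groups. Embryonic myosin gene Myh3 averaged 0.710 ± 0.213 CPM in uninduced Dux and 0.732 ± 0.287 CPM in uninduced DUX4 cultures, against 192 ± 8.38 CPM in uninduced Luc cultures (SD, n = 3). Mef2c, a transcription factor gene of differentiating muscle, had 0 counts in uninduced Dux and DUX4 cultures, against 29.8 ± 1.33 CPM in uninduced Luc cultures. With doxycycline the summed level was 895 to 975 CPM in the Luc line. There 12 of 15 markers fell and 1 rose, beside 16.4% and 14.7% of all genes. Igf2 and H19 were lower there too. The summed level was 102 to 129 CPM in induced Dux and 38.9 to 43.7 CPM in induced DUX4 cultures. In the Dux line 8 markers were lower and 2 higher (Mef2c and Myl1), beside 34.8% and 34.1% of all genes. In the DUX4 line 6 were lower and 4 higher (Mef2c, Myl1, Tnnc1 and Tnni1), beside 33.1% and 34.4%. Myod1 averaged 88.1 CPM in induced Dux and 3.67 CPM in induced DUX4 cultures. In DUX4 cultures Myl1 averaged 15.8 CPM when induced and 6.42 CPM when uninduced, and Tnnc1 11.2 and 3.79 CPM. Mef2c held 4 counts in induced DUX4 cultures. The part that these markers play in the Igf2, H19 and Igfbp5 differences was not tested.

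Genes whose levels ran most like these 3 over the 18 libraries were, for Igf2, Cthrc1 (Pearson r 0.998), Mybph (r 0.998) and Cacna1s (r 0.997), for H19, Itga7, Tmem123 and Ass1 (r 0.990 each), and for Igf1, Lrrc17 (r 0.989), Septin2 (r 0.986) and Ehd2 (r 0.984). The measure is the correlation of log2(CPM + 1), and it is a description, since libraries of a line share a clone and the 3 lines form separate clusters. Mybph and Cacna1s encode a myosin-binding protein and a calcium channel subunit of skeletal muscle, and Itga7 encodes a laminin receptor of muscle cells.

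**Figure D2:**
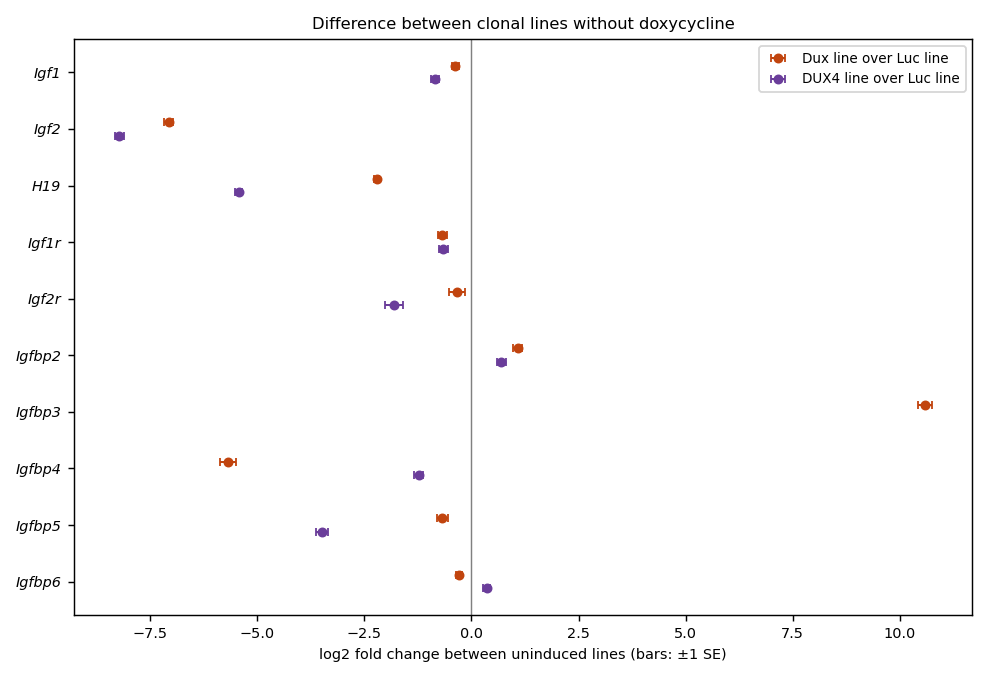
Log2 fold change between uninduced cultures of the Dux or DUX4 line and those of the Luc line for each of the 10 genes, with bars of 1 standard error (3 libraries a group). The values run from -8.22 for Igf2 (DUX4 over Luc) to 10.59 for Igfbp3 (Dux over Luc), the second resting on 5 counts in the 3 Luc libraries. Igfbp3 in DUX4 over Luc is left out because both groups held few counts.

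The receptor genes were expressed in all 3 lines. Igf1r, the tyrosine kinase that carries the IGF signal, stood at 32.2, 50.5 and 48.7 CPM in induced and 48.4, 58.2 and 59.2 CPM in uninduced Dux cultures, with overlapping values. DUX4 cultures had 58.3, 61.2 and 65.0 CPM when induced and 59.7, 56.1 and 53.8 CPM when uninduced, and Luc cultures had 89.0, 94.5 and 89.5 CPM when induced and 91.5, 89.6 and 86.2 CPM when uninduced. Each line's groups overlapped, and the 6 Luc libraries were above the 12 others. The log2 responses were -0.35 (SE 0.115), 0.12 (SE 0.111) and 0.03 (SE 0.105) in the Dux, DUX4 and Luc lines. Without induced Dux replicate 1, the lowest library, the Dux response was -0.18 (SE 0.0664).

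Igf2r, the receptor that clears IGF2, was higher with doxycycline in the DUX4 line. It stood at 86.1, 93.7 and 90.9 CPM in induced DUX4 cultures, against 11.8, 9.62 and 12.1 CPM in uninduced ones, an 8.09-fold difference (log2 3.02, SE 0.202) with no overlap. In the Dux line induced cultures had 34.3, 66.7 and 72.2 CPM, against 24.6, 33.1 and 34.8 CPM in uninduced cultures, and induced replicate 1 fell within the uninduced range. The log2 response in the Dux line was 0.88 (SE 0.181), and 1.13 (SE 0.0774) without induced replicate 1. Luc cultures had 39.2, 41.6 and 43.6 CPM when induced and 38.9, 38.7 and 39.8 CPM when uninduced, which overlapped (log2 0.09, SE 0.178). Uninduced DUX4 cultures had the lowest Igf2r of all 6 groups, so that on the CPM per kb scale the ratio of Igf2r to Igf1r averaged 2.65 (SD 0.119) in induced and 0.357 (SD 0.0478) in uninduced DUX4 cultures. The same ratio averaged 2.32 (SD 0.378) in induced and 1.00 (SD 0.0743) in uninduced Dux cultures, and 0.823 (SD 0.0485) in induced and 0.793 (SD 0.0356) in uninduced Luc cultures (n = 3 each). The antisense noncoding RNA Airn starts within Igf2r, and unstranded reads in their overlap could belong to either.

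The binding protein transcripts differed between lines in their proportions, and Igfbp2, Igfbp5 and Igfbp6 were expressed in all of them. Igfbp3, which encodes the main IGF carrier of blood plasma, was detected well only in the Dux line, at 286, 264 and 260 CPM in induced cultures, against 183, 168 and 167 CPM in uninduced ones. The induced and uninduced values did not overlap (log2 0.65, SE 0.0624). In the other lines the 3 libraries of a group held 4 counts together in induced and 3 in uninduced DUX4 cultures, and 2 in induced and 5 in uninduced Luc cultures. At these counts the induced over uninduced ratio was 1.34 (95% interval 0.227 to 9.18) in the DUX4 line and 0.399 (95% interval 0.0380 to 2.44) in the Luc line, so no change was detectable. Without doxycycline the Dux over Luc log2 difference was 10.59 (SE 0.155), set by those 5 Luc counts, and it was 11.32 without uninduced Luc replicate 3 and 10.03 without uninduced Luc replicate 2. The Dux over DUX4 ratio was 2564 (95% interval 877 to 12436). These intervals cover counting error only.

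Igfbp4, whose product is cleaved by the protease PAPP-A, showed the reverse pattern between the lines. It stood at 51.6, 38.1 and 42.0 CPM in induced and 23.1, 20.8 and 22.9 CPM in uninduced Luc cultures, with no overlap (log2 0.98, SE 0.0862). In the DUX4 line it stood at 2.50, 2.71 and 2.54 CPM in induced and 9.45, 9.81 and 9.13 CPM in uninduced cultures, again with no overlap but in the opposite direction (log2 -1.87, SE 0.151). Dux cultures had under 1 CPM in each library, with means of 0.478 CPM induced and 0.431 CPM uninduced, and the groups overlapped. The Dux log2 response was 0.16 (SE 0.444) and turned to -0.08 when libraries were scaled by their size alone and to -0.02 without uninduced Dux replicate 3.

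Igfbp5, the binding protein that C2C12 cells are known to secrete as they differentiate, was the most abundant of the 5 in the Luc line. The Luc line had 3566, 3282 and 3346 CPM in induced cultures, against 2384, 2465 and 2324 CPM in uninduced ones. Igfbp5 in the Dux line stood at 173, 288 and 293 CPM in induced cultures, against 1416, 1519 and 1533 CPM in uninduced ones. In the DUX4 line it stood at 95.3, 114 and 112 CPM in induced cultures, against 218, 214 and 207 CPM in uninduced ones. Induced values were thus above uninduced ones in the Luc line and below them in both other lines, with no overlap. The log2 responses were -2.57 (SE 0.132) in the Dux line, -0.99 (SE 0.129) in the DUX4 line and 0.51 (SE 0.123) in the Luc line. Igfbp5 differed from Igf2 and H19 in this respect, since those were lower with doxycycline in the Luc line.

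Igfbp6, which encodes a binding protein with a preference for IGF2, followed the signs of Igfbp5. It averaged 55.2 ± 9.13 CPM in induced and 109 ± 4.67 CPM in uninduced Dux cultures, 65.4 ± 2.07 CPM in induced and 169 ± 5.16 CPM in uninduced DUX4 cultures, and 190 ± 4.11 CPM in induced and 132 ± 3.98 CPM in uninduced Luc cultures (SD, n = 3). No induced group overlapped its uninduced group. The log2 responses were -0.97 (SE 0.0776), -1.37 (SE 0.0761) and 0.52 (SE 0.0729) in the Dux, DUX4 and Luc lines.

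Igfbp2, whose gene lies 5.46 kb from Igfbp5 on chromosome 1 and faces it from the opposite strand, did not follow its neighbour. Induced Dux cultures had 200, 150 and 130 CPM, against 103, 102 and 98.2 CPM in uninduced ones, and the groups did not overlap. Induced DUX4 cultures had 15.9, 17.6 and 17.3 CPM, against 72.8, 75.8 and 84.7 CPM in uninduced ones. Induced Luc cultures had 19.2, 20.5 and 18.2 CPM, against 47.3, 48.4 and 47.9 CPM in uninduced ones. The level was thus higher with doxycycline in the Dux line and lower with it in both other lines, with log2 responses of 0.67 (SE 0.102), -2.20 (SE 0.121) and -1.31 (SE 0.120). In the Dux and Luc lines the neighbouring pair had opposite signs.

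Summed over the 5 binding protein genes on the CPM per kb scale, the level was 265 ± 21.3 in induced and 456 ± 2.67 in uninduced Dux cultures, 86.4 ± 4.07 in induced and 232 ± 5.95 in uninduced DUX4 cultures, and 757 ± 29.7 in induced and 548 ± 9.34 in uninduced Luc cultures (SD, n = 3). The make-up of that sum differed by line. In induced Dux cultures Igfbp3 held 32.7% of it, Igfbp2 32.5%, Igfbp6 18.7% and Igfbp5 16.1%, whereas in uninduced Dux cultures Igfbp5 held 54.4%. Igfbp6 held the most in the DUX4 line, with 68.1% in induced and 65.5% in uninduced cultures. Igfbp5 held the most in the Luc line, with 74.7% in induced and 72.6% in uninduced cultures.

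**Figure D3:**
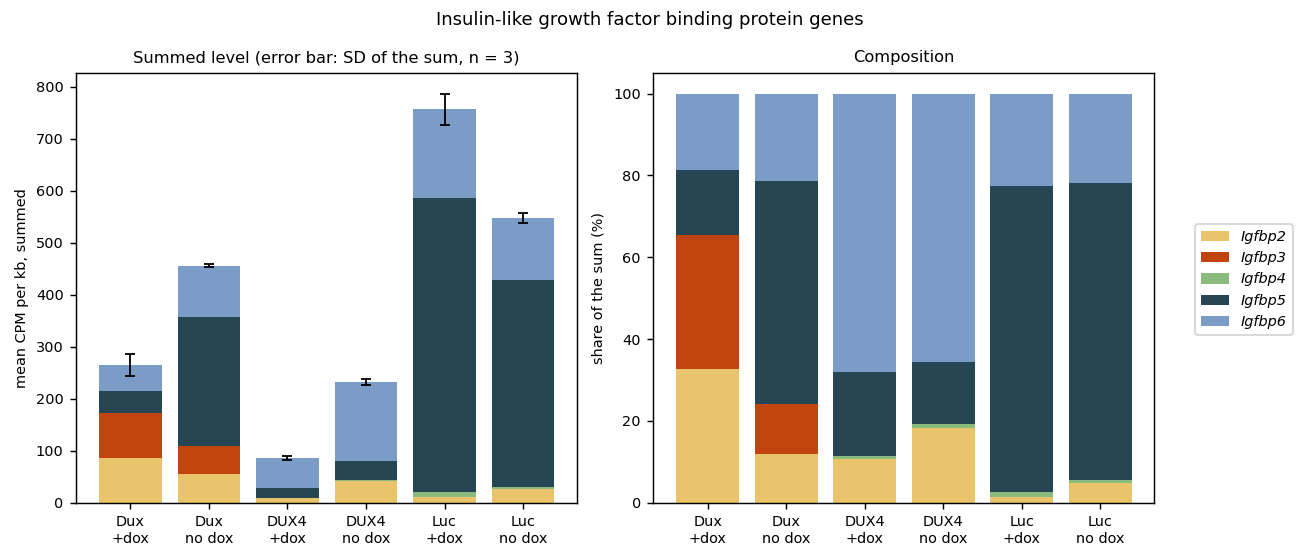
Summed level of Igfbp2 to Igfbp6 in mean CPM per kb of exon (left; error bars, SD of the sum over 3 libraries) and the share of that sum held by each gene (right, in %), for the 6 groups. Igfbp3 appears only in the Dux line, Igfbp6 fills 68.1% and 65.5% of the DUX4 bars, and Igfbp5 fills 74.7% and 72.6% of the Luc bars.

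**Figure D4:**
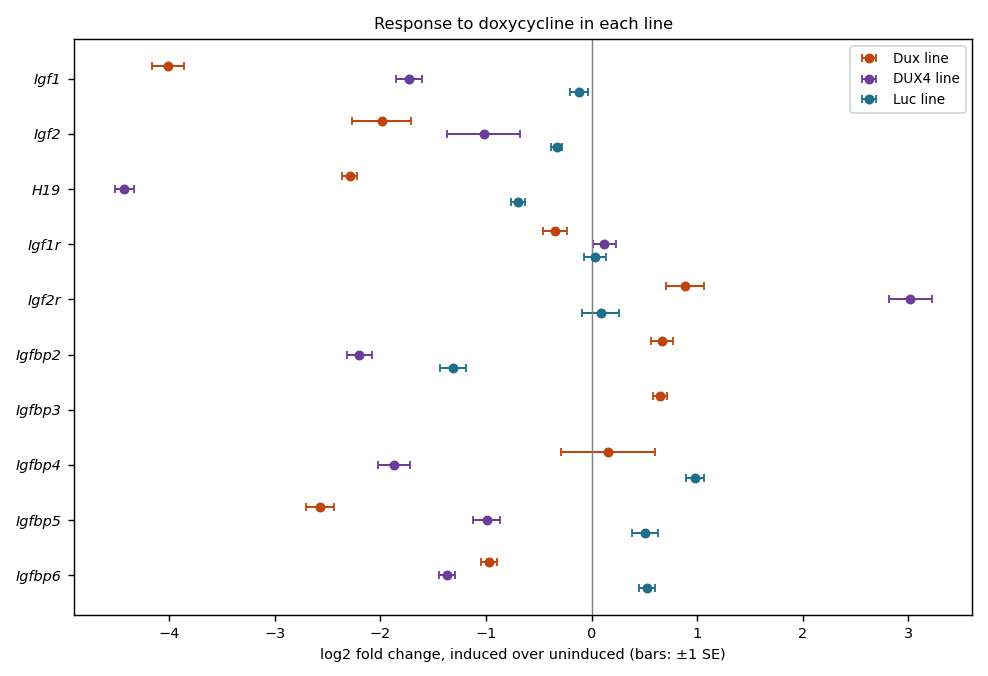
Log2 fold change of induced over uninduced cultures for each of the 10 genes in the Dux, DUX4 and Luc lines, with bars of 1 standard error (3 libraries a group). The values run from -4.43 for H19 in the DUX4 line to 3.02 for Igf2r in the DUX4 line. Igfbp3 is shown for the Dux line alone because the other lines held few counts.

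All 10 genes passed the filter on low counts, some of them through a single line. In the Dux line 3 of the 10 were called higher and 6 lower with doxycycline, beside 34.1% and 34.8% of all 13602 genes tested. In the DUX4 line 1 was called higher and 7 lower, beside 34.4% and 33.1%, and a fit of the DUX4 groups alone called 2 higher. In the Luc line 3 were called higher and 3 lower, beside 14.7% and 16.4%. The median log2 response of the 10 was -0.66 in the Dux line, -1.19 in the DUX4 line and -0.05 in the Luc line, against a median of all genes of -0.01, 0.00 and 0.00. Scaling by library size alone moved the median of all genes in the Dux line by -0.24 and left 31.6% of calls in the higher direction, against 49.5% with TMM factors, while the same numbers of the 10 genes were called.

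Between uninduced lines, 2 of the 10 were called higher and 7 lower in Dux than in Luc, beside 32.2% and 33.1% of all genes. In DUX4 over Luc 2 were called higher and 7 lower, beside 36% and 37%. In Dux over DUX4 7 were called higher and 2 lower, beside 33.1% and 33.3%. The Dux response was called higher than the Luc response in 2 of the 10 and lower in 6, beside 30.4% and 29.5% of all genes. The DUX4 response was called higher than the Luc response in 1 and lower in 6, beside 28.3% and 26.7%. The Dux response was called higher than the DUX4 response in 4 and lower in 4, beside 32.9% and 32.3%. Scaled by library size alone, 32.2% of all calls in the Dux minus Luc response were higher, against 50.7% with TMM factors, and 38.8% against 50.4% in the Dux minus DUX4 response. Since the 10 genes were picked on these contrasts, nothing is read from the counts. The comparisons share the uninduced cultures of a line or the Luc cultures, and their values stand side by side without a test of likeness.

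Beyond the 10 genes, 91 genes of the pathway were listed by role, of which 69 were tested. In the Dux line 24 rose and 23 fell with doxycycline, in the DUX4 line 28 rose and 23 fell, and in the Luc line 13 rose and 15 fell (edgeR quasi-likelihood test, adjusted p below the 0.05 threshold over all 13602 genes). Over all genes the shares higher and lower were 34.1% and 34.8% in the Dux line, 34.4% and 33.1% in the DUX4 line, and 14.7% and 16.4% in the Luc line. A fit of the Luc groups alone called 27 pathway genes higher and 23 lower. With all groups fitted, the median log2 response of the pathway genes was -0.05, 0.01 and 0.05 in these lines, near that of all genes. The adjusted p-values below come from this test.

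**Figure D5:**
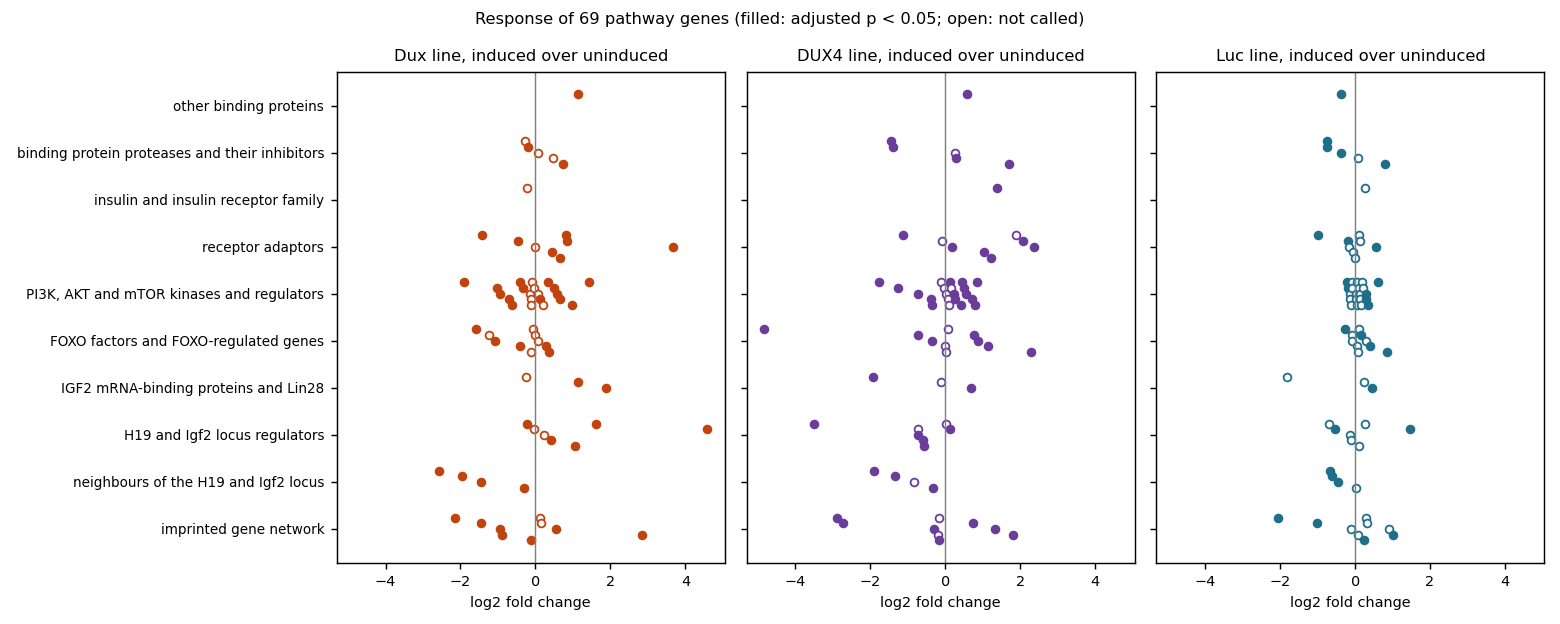
Log2 fold change of induced over uninduced cultures for the 69 pathway genes tested, by role (rows) and line (panels), each point being 1 gene (filled, adjusted p below 0.05; open, not called). The 3 panels hold 24 genes higher and 23 lower for Dux, 28 and 23 for DUX4, and 13 and 15 for Luc.

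Among proteases that free IGF from its binding proteins and their inhibitors, 1 of 5 genes tested rose and 1 fell in the Dux line, 2 rose and 2 fell in the DUX4 line, and 1 rose and 3 fell in the Luc line. Beside these stand 34.1% and 34.8%, 34.4% and 33.1%, and 14.7% and 16.4% of all genes higher and lower. Pappa, which encodes PAPP-A, averaged 12.3 CPM in induced and 3.79 CPM in uninduced DUX4 cultures (log2 1.71, SE 0.158, adjusted p = 1.06e-08). Pappa2, its relative, fell in the same line to 2.27 CPM in induced cultures, against 6.25 CPM in uninduced ones (adjusted p = 3.83e-07). Adam12, a membrane protease that can cut IGFBP3 and IGFBP5, fell in the DUX4 line to 53.0 CPM in induced cultures, against 140 CPM in uninduced ones (adjusted p = 6.78e-10). Without doxycycline Pappa was lower in the Dux and DUX4 lines, at 0.932 and 3.79 CPM, than in the Luc line, at 19.5 CPM (adjusted p = 1.98e-13 and 2.18e-11). Igfbp7, a secreted relative of the binding proteins with weak affinity for IGF, rose in the Dux line to 334 CPM in induced cultures, against 152 CPM in uninduced ones (log2 1.13, SE 0.0894, adjusted p = 1.18e-09).

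Of 8 receptor adaptor genes tested, 5 rose and 1 fell in the DUX4 line, beside 34.4% of all genes higher and 33.1% lower there. Shc1, an adaptor that links receptors to the RAS pathway, averaged 1048 CPM in induced and 203 CPM in uninduced DUX4 cultures (log2 2.36, SE 0.0418, adjusted p = 3.71e-19), while in the Dux line it fell by 0.48 on the log2 scale (adjusted p = 3.44e-09). Insr, the insulin receptor gene, averaged 121 CPM in induced and 46.6 CPM in uninduced DUX4 cultures (log2 1.38, SE 0.116, adjusted p = 2.67e-09). Irs1, the main adaptor of the IGF1 receptor, fell in both lines, to 182 CPM in induced against 490 CPM in uninduced Dux cultures and to 111 CPM in induced against 244 CPM in uninduced DUX4 cultures (adjusted p = 3.97e-11 and 1.21e-09). Irs2, its partner in signalling, averaged 73.5 CPM in induced and 31.4 CPM in uninduced DUX4 cultures (log2 1.22, adjusted p = 5.12e-08). Grb10, an imprinted adaptor gene that restrains the receptors, held 16 counts in induced and 1 in uninduced Dux cultures, a ratio of 17.0 (95% interval 2.64 to 711, counting error only). In DUX4 cultures it averaged 0.500 CPM when induced and 0.110 CPM when uninduced (adjusted p = 0.00869), and that call was lost without induced DUX4 replicate 1 (log2 1.36). Gab1, a docking protein gene, rose there to 30.8 CPM in induced cultures, against 15.2 CPM in uninduced ones (adjusted p = 6.42e-11). Dux cultures had 5 adaptors higher and 2 lower, and Luc cultures 1 higher and 2 lower with doxycycline, beside 34.1% and 34.8%, and 14.7% and 16.4%, of all genes.

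Kinases and regulators of the PI3K, AKT and mTOR branch were 7 higher and 7 lower of 21 in the Dux line, 10 higher and 5 lower in the DUX4 line, and 4 higher and 2 lower in the Luc line. For all genes the shares were 34.1% and 34.8%, 34.4% and 33.1%, and 14.7% and 16.4%. Deptor, whose product inhibits mTOR, fell in both double-homeobox lines, to 57.5 CPM in induced against 214 CPM in uninduced Dux cultures (adjusted p = 5.58e-11) and to 5.76 CPM in induced against 19.8 CPM in uninduced DUX4 cultures (adjusted p = 5.22e-08). Pik3cb, which encodes a catalytic subunit of PI3K, averaged 68.3 CPM in induced and 25.2 CPM in uninduced Dux cultures (log2 1.43, SE 0.0841, adjusted p = 1.39e-11). Pik3r2, a regulatory subunit gene, fell by 1.04 on the log2 scale in the same line (adjusted p = 1.54e-13). Ddit4, an mTOR inhibitor gene of the stress response, fell in the DUX4 line to 13.1 CPM in induced cultures, against 31.6 CPM in uninduced ones (adjusted p = 8.71e-10).

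FOXO factors and genes that FOXO regulates, which IGF signalling holds down in muscle, were 2 higher and 3 lower of 10 in the Dux line, 4 higher and 3 lower in the DUX4 line, and 3 higher and 1 lower in the Luc line. Higher and lower shares of all genes were 34.1% and 34.8%, 34.4% and 33.1%, and 14.7% and 16.4%. Pdk4, a kinase gene of glucose oxidation, fell in the DUX4 line to 1.75 CPM in induced cultures, against 50.1 CPM in uninduced ones (log2 -4.83, SE 0.103, adjusted p = 3.54e-18), and in the Dux line to 54.4 CPM in induced cultures, against 114 CPM in uninduced ones (adjusted p = 6.79e-12). Sesn3, a sestrin gene, rose in the DUX4 line to 84.4 CPM in induced cultures, against 17.5 CPM in uninduced ones (adjusted p = 4.88e-12). Sesn1, another sestrin gene, fell in the Dux line to 16.8 CPM in induced cultures, against 51.1 CPM in uninduced ones (adjusted p = 9.07e-15). Foxo4, a FOXO factor gene, rose in the DUX4 line to 62.7 CPM in induced cultures, against 28.4 CPM in uninduced ones (adjusted p = 1.71e-11). The ubiquitin ligase genes of muscle atrophy differed between lines and were not called with doxycycline in the Dux or DUX4 line. Fbxo32 averaged 62.5 CPM in uninduced Dux and 63.4 CPM in uninduced DUX4 cultures, against 369 CPM in uninduced Luc cultures (adjusted p = 1.74e-17 and 1.34e-17). Trim63 averaged 0.160 CPM in uninduced Dux and 0.114 CPM in uninduced DUX4 cultures, against 20.0 CPM in uninduced Luc cultures (adjusted p = 3.01e-14 and 1.40e-14).

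The responses of genes listed as regulators of the Igf2 and H19 locus were compared between the Dux and DUX4 lines. All 7 listed regulators of the locus had a higher log2 response in the Dux than in the DUX4 line (interaction test), beside 32.9% of all genes called higher in that contrast. The list was chosen with earlier results of these data known, so nothing is read from this count. The smallest of these differences was 0.300, and scaling by library size alone moved the median of all genes in that contrast by -0.203. Hmga2, which encodes a chromatin protein of embryonic cells and acts upstream of Igf2bp2, averaged 75.6 CPM in induced and 36.1 CPM in uninduced Dux cultures (log2 1.07, adjusted p = 1.14e-10). In DUX4 cultures it averaged 2.52 CPM when induced and 28.5 CPM when uninduced (log2 -3.49, adjusted p = 2.43e-15), and in Luc cultures 53.6 CPM when induced and 19.4 CPM when uninduced (log2 1.46, adjusted p = 2.14e-11). Plagl1, an imprinted zinc finger gene of the imprinted gene network, averaged 4.48 CPM in induced and 0.180 CPM in uninduced Dux cultures (log2 4.58, SE 0.373, adjusted p = 1.85e-09), and Plag1, its relative, 4.23 CPM in induced and 1.39 CPM in uninduced ones (adjusted p = 6.98e-07). The Dux minus DUX4 difference for Plagl1 rested on 3 counts in each DUX4 group and was not called without uninduced DUX4 replicate 1.

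Of the IGF2 mRNA-binding protein genes, Igf2bp2 rose in the 3 lines, to 20.1 CPM in induced against 9.15 CPM in uninduced Dux cultures, to 14.9 CPM in induced against 9.34 CPM in uninduced DUX4 cultures, and to 57.0 CPM in induced against 41.6 CPM in uninduced Luc cultures (adjusted p = 2.17e-10, 4.91e-07 and 4.97e-06). Without doxycycline it was lower in the Dux and DUX4 lines than in the Luc line (adjusted p = 2.19e-15 and 1.49e-15). Its relative Igf2bp1 rose in the Dux line (log2 1.87, SE 0.360, adjusted p = 0.000185), and Igf2bp3 0.517 CPM in induced and 2.01 CPM in uninduced DUX4 cultures (adjusted p = 1.05e-05). Among neighbours of the locus, 4 of 4 tested fell in the Dux line, 3 of 4 in the DUX4 line and 3 of 4 in the Luc line, beside 34.8%, 33.1% and 16.4% of all genes. Lsp1, a leukocyte-specific actin-binding protein gene near H19, averaged 23.2 CPM in induced and 63.4 CPM in uninduced Dux cultures and 27.0 CPM in induced and 100 CPM in uninduced DUX4 cultures (adjusted p = 1.73e-14 and 1.44e-16). Tnnt3, a fast-muscle troponin gene near H19, averaged 1.54 CPM in uninduced Dux and 0.892 CPM in uninduced DUX4 cultures, against 92.7 CPM in uninduced Luc cultures (adjusted p = 1.61e-17 and 6.54e-18). Tnni2, its troponin partner, averaged 0.656 and 0.871 CPM in those 2 uninduced lines, against 15.6 CPM in uninduced Luc cultures (adjusted p = 1.13e-13 and 1.27e-13).

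In the wider imprinted gene network, 2 of 9 genes tested rose and 5 fell in the Dux line, 3 rose and 4 fell in the DUX4 line, and 2 rose and 2 fell in the Luc line. The shares of all genes higher and lower were 34.1% and 34.8%, 34.4% and 33.1%, and 14.7% and 16.4% in these lines. Mest averaged 12.9 CPM in induced and 35.2 CPM in uninduced Dux cultures, 3.28 CPM in induced and 0.940 CPM in uninduced DUX4 cultures, and 3.46 CPM in induced and 14.4 CPM in uninduced Luc cultures (adjusted p = 2.09e-09, 1.35e-05 and 5.70e-09). Peg10 fell in the DUX4 line to 15.2 CPM in induced cultures, against 113 CPM in uninduced ones (log2 -2.89, SE 0.0919, adjusted p = 9.34e-16). It also fell in the Luc line, to 65.3 CPM in induced cultures, against 132 CPM in uninduced ones (log2 -1.02, adjusted p = 5.64e-09). The DUX4 response minus the Luc response was -1.87 (SE 0.121). Cdkn1c, which encodes a cell cycle inhibitor, held 3 counts in induced and 22 in uninduced DUX4 cultures, a ratio of 0.138 (95% interval 0.0264 to 0.458, counting error only). Dcn, which encodes the matrix proteoglycan decorin, averaged 4.36 CPM in uninduced Dux and 0.822 CPM in uninduced DUX4 cultures, against 139 CPM in uninduced Luc cultures (adjusted p = 1.19e-19 and 1.26e-20). Airn, the antisense RNA of Igf2r, averaged 1.36 CPM in induced and 0.166 CPM in uninduced Dux cultures (log2 2.84, SE 0.559, adjusted p = 0.000166), and its log2 change was 4.12 without uninduced Dux replicate 3.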

How the data were processed

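The deposited table held raw read counts per gene, not normalized, with 1 column for each of 18 libraries of polyadenylated RNA. CASAVA, TopHat2 2.0.12, Bowtie2 2.2.3 and the mm10 build are named in the submitters' processing notes. The counter, its annotation and its strand setting were not given in the sources used here. Labels supplied each library's group and replicate number. Of 24028 genes, 5017 had no count, 27 symbols turned into dates were restored, 5 rows had no symbol, and 13602 passed the edgeR filterByExpr rule by group.

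One model of 6 group means was fitted to all libraries with TMM factors and tested with edgeR 4.0.16 in R 4.3.3 (quasi-likelihood F test, two-sided). Benjamini-Hochberg adjustment covered all genes tested, and genes with an adjusted p under 0.05 were called. Responses were compared by interaction contrasts. The standard error is the size of the log2 fold change over the square root of F. CPM used the library total times the TMM factor, and exon lengths and positions came from GENCODE vM21 on GRCm38, the same assembly as mm10. Ratios against a group with 1 to 3 counts are given with a 95% exact interval. In counts simulated for induced against uninduced Dux libraries (13602 genes, 200 changed), the fit called 90% and 84% of genes changed by log2 1 and -1, and 100% and 94% of those changed by 2 and -2. The simulation gave every gene the same biological spread and a mean taken over all 18 libraries. It left out the wider spread between the real induced Dux libraries, so these rates describe a cleaner setting.

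The 10 genes and the gene lists were chosen with earlier results of these data known. Named pathway genes were those called with a log2 change of at least 1, at most the 4 largest per direction and list, plus values of the same genes in other comparisons. The 3 most alike genes were named for each of Igf1, Igf2 and H19. Replicate numbers were checked for pairing by the correlation of deviations from group means. In the Dux line all 3 same-numbered pairs exceeded 0.1 (0.400, 0.219 and 0.202), and in the other lines none did. Differently numbered Dux libraries of replicates 2 and 3 correlated about as well (0.212 and 0.187). Pairing of those replicates was thus not shown, and the main model held no replicate block. Alternatives were other scalings, DESeq2 1.42.0, no filter, separate fits, a replicate block, and leaving out libraries.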

Additional observations from a re-analysis of the deposited data

Results flagged for a closer look

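Responses that ran in opposite directions in different lines stood out. For the 10 genes, which were chosen on these same contrasts, the differences between responses are descriptions on the log2 scale and no test of them is given. Igfbp2 was higher with doxycycline in the Dux line (0.67, SE 0.102) and lower in the DUX4 line (-2.20, SE 0.121) and the Luc line (-1.31, SE 0.120), so that its Dux response exceeded the DUX4 response by 2.87 and the Luc response by 1.98.

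Igfbp5 and Igfbp6 were lower with doxycycline in the Dux and DUX4 lines and higher in the Luc line. For Igfbp5 the Dux response minus the Luc response was -3.08 and the DUX4 response minus the Luc response was -1.50. For Igfbp6 these differences were -1.50 and -1.89. Igfbp4 was lower with doxycycline in the DUX4 line and higher in the Luc line, a difference of -2.85.

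Among pathway genes the difference itself was tested with the interaction contrast of edgeR. A gene was listed only if its 2 responses were called in opposite directions, each with a log2 change of at least 1. The difference also had to be called. The adjusted p-values given here are therefore under the threshold by that choice and add no support. Hmga2 rose in the Dux line (log2 1.07) and in the Luc line (log2 1.46) and fell in the DUX4 line (log2 -3.49), a difference of 4.56 for Dux minus DUX4 (adjusted p = 1.50e-15) and of -4.96 for DUX4 minus Luc (adjusted p = 1.25e-15). Mest fell in the Dux line (log2 -1.44) and in the Luc line (log2 -2.05) and rose in the DUX4 line (log2 1.80), a difference of -3.24 for Dux minus DUX4 (adjusted p = 1.47e-08) and of 3.85 for DUX4 minus Luc (adjusted p = 4.91e-09). Dcn fell in the Dux line (log2 -2.15) and rose in the Luc line (log2 1.02), a difference of -3.17 (adjusted p = 1.98e-11). For each response given here, the 3 induced and the 3 uninduced libraries did not overlap.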

How the results depend on the processing

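Of 674 recomputed counts of genes called, 4 moved by over 1.5 times, and each came from fitting only the groups compared. That fit called 3103 genes higher in the Luc line, against 2004 with all groups, 27 pathway genes higher and 23 lower there, against 13 and 15, and 2 of the 10 genes higher in the DUX4 line, against 1. The cause was not tested. With the replicate block, 25 pathway genes were called higher and 25 lower in the Dux line, against 24 and 23, and the block changed no count of the 10 genes. Leaving out 1 library at a time gave 5 to 6 of the 10 genes lower in the Dux line and 6 to 7 in the DUX4 line, and 22 to 27 pathway genes higher in the Dux line, 24 to 26 in the DUX4 line and 11 to 14 in the Luc line. Without both Dux replicate 1 libraries, a setting chosen after seeing the data, the Dux line still had 3 of the 10 genes higher and 6 lower. No log2 value of a called gene named here turned sign in 750 values of the 10 genes or 2562 of pathway genes, while 21 values of pathway genes missed the threshold. Of the 750 values, 65 moved by at least the SD between libraries of a group. Among these were Dux responses scaled by library size alone, such as Igf1 at -4.25, against -4.01, and H19 at -2.54, against -2.29. Counts limit Igf2 outside the Luc line, Igfbp3 outside the Dux line and Igfbp4 in the Dux line.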
